A study of Mus musculus with 11 samples.

Results

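The genes described here encode the parts of the histone H2B deubiquitinases that depend on ATXN7L3, together with their paralogues. They were taken by gene name, and all 9 were found once in each of the 2 expression tables, among 34570 genes listed in either table: Atxn7l3, Atxn7l3b, Eny2, Usp22, Usp27x, Usp51, Atxn7, Atxn7l1 and Atxn7l2. All 9 passed the filter on low counts in every fit. Poly(A) RNA was sequenced from mouse embryonic stem cells (mESCs) and from mouse embryonic fibroblasts (MEFs) of a DBA/2 x C57BL/6 background, either wild type (WT, Atxn7l3+/+) or Atxn7l3-/-. There were 2 WT and 3 Atxn7l3-/- mESC libraries and 3 WT and 3 Atxn7l3-/- MEF libraries, 11 in all. The mESCs were derived from blastocysts and kept with LIF, 15% FCS, 1 uM PD0325901 and 3 uM CH99021, first on feeder cells and then without them. The MEFs were grown in 10% FCS from embryos at E10.5. No other treatment was given. The null allele was germline, so that no Cre line limits the cells in which it acts, and per the study's methods its targeting construct carried a LacZ and Neo cassette and loxP sites around most exons of the gene.

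Mono-ubiquitylated histone H2B is a mark of transcribed chromatin that is placed by the RNF20/RNF40 ligase and removed by ubiquitin-specific proteases. In the SAGA coactivator the protease USP22 is active only when bound to the adaptors ATXN7L3 and ENY2, and ATXN7 anchors this module to the rest of the complex. USP27X and USP51 are paralogues of USP22 that use the same adaptors outside SAGA. ATXN7L3 is therefore shared by all the proteases of this group, whereas the proteases and the ATXN7 proteins each have paralogues. Both cell types are known to express SAGA.

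Whether reads of the paralogues could be confused was examined first, by comparing their coding sequences. ATXN7L3B is a short paralogue of ATXN7L3 encoded by a gene with a single coding exon. The longest coding sequences of the GENCODE M21 transcripts aligned over 176 bases without a gap, 139 of them identical (79.0%), and the longest identical run was 16 bases.

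For the proteases the coding sequences of Usp22 and Usp27x aligned over 1143 bases with 78.7% identity and a longest identical run of 32 bases. Those of Usp27x and Usp51 aligned over 1008 bases with 74.7% identity, and those of Usp22 and Usp51 over 1431 bases with 69.7%. The following 90 bases surround the longest run, and capitals mark the 24 positions at which the 3 genes are not all alike. They lie in exon 12 of 13 of Usp22-201 (chr11:61155235-61155324, minus strand, mm10), in exon 1 of 2 of Usp27x-202 (chrX:7373679-7373768, minus strand) and in exon 2 of 2 of Usp51-201 (chrX:153009210-153009299, plus strand).
Usp22: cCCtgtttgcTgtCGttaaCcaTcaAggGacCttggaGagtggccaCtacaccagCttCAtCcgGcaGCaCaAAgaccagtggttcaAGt
Usp27x: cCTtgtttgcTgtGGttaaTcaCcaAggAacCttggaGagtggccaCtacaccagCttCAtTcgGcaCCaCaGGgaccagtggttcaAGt
Usp51: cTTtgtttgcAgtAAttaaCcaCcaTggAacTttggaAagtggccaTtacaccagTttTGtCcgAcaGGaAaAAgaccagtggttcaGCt
No stretch of 50 bases in the transcripts of any member occurred in those of another member. Eny2 shared 58 of its 5937 stretches with other genes and the other members shared none, so a read matching 50 bases could be told apart between the paralogues. Atxn7, Atxn7l1, Atxn7l3b and Eny2 overlap a gene on the opposite strand in that annotation (34861 and 14943 bases with Atxn7l1os1 and Atxn7l1os2 for Atxn7l1, 501 bases with Gm26596 for Atxn7l3b, 413 bases with Thoc7 for Atxn7 and 266 bases with Nudcd1 for Eny2). The libraries were stranded, and the strand setting of the counting is not given in the sources used here.

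Sequencing depth was similar across libraries, with 34515342 to 49602605 counts. The detection floor was set at 3 counts and covers counting error only. Over the total counts of each library this is 0.0605 to 0.0869 CPM (counts scaled to a common library size). That range lacks the TMM normalization of the levels, so it is set beside them only roughly. Levels below are CPM normalized by TMM over all 11 libraries, which compares 1 gene between libraries but not genes of different length. The 7 stem cell markers summed to 44.0 to 99.6 CPM in WT MEFs and 52.3 to 98.9 CPM in MEFs labelled Atxn7l3-/-, against 3217 to 4225 CPM in mESCs. Of these, Pou5f1 and Zfp42 had no count recorded in any MEF library. Klf4 was at 16.3 to 76.5 CPM in MEFs, and Sox2 reached 47.8 CPM in WT replicate 1. Tfcp2l1 was at 75.2, 60.4 and 27.2 CPM in the labelled MEFs against at most 1.56 CPM in WT. The summed level of 9 fibroblast markers was 7548 to 42549 CPM in the WT MEFs and 18646 to 25086 CPM in the MEFs labelled Atxn7l3-/-. Col1a1, Col1a2 and Col3a1 had the highest levels of the 9 in every MEF library, and single markers differed between the groups. Prrx1 was at 27.9, 6.17 and 341 CPM in the labelled MEFs, below all WT MEFs. Dcn was higher, at 1832, 2445 and 711 CPM against 38.3, 382 and 25.3 CPM in WT. Pdgfrb was at 210 to 480 CPM in WT MEFs. It was at 27.3, 2.05 and 278 CPM in the labelled MEFs, replicate 3 lying within the WT range. The other fibroblast markers overlapped. In mESCs the sum of the 9 fibroblast markers was 25.9 to 99.5 CPM in WT against 272 to 393 CPM in Atxn7l3-/-, and that of 4 macrophage markers was 28.7 to 59.5 CPM against 64.8 to 111 CPM with Ptprc and Adgre1 at 0, while the pluripotent, mesothelial, epithelial and endothelial sums of the mESC groups overlapped. The macrophage sums of the mESCs differed through Cd68 (55.8 and 26.2 CPM in WT against 83.3, 63.7 and 111 CPM). Csf1r went the other way (3.64 and 2.51 CPM in WT against 1.26, 1.18 and 0.0225 CPM). The MEF groups also differed in mesothelial and epithelial genes. The 5 mesothelial markers (Wt1, Msln, Upk3b, Lrrn4 and Upk1b) summed to 14.9 to 40.9 CPM in WT MEFs and to 5857 to 8759 CPM in those labelled Atxn7l3-/-, none being at 0 in either group. Epithelial markers (4 genes) summed to 1.00 to 2.91 CPM in WT MEFs against 6.91 to 35.4 CPM. The MEF groups overlapped in macrophage markers (4 genes, 145 to 307 CPM in WT against 103 to 612 CPM). They also overlapped in endothelial markers (3 genes, 4.03 to 76.2 CPM in WT against 1.48 to 9.85 CPM). Of the latter, Pecam1 and Cdh5 stayed at or below 0.451 CPM in every MEF library. The epithelial difference was largest for Krt18 (at most 0.688 CPM against 31.6, 5.32 and 22.9 CPM), and Krt8 overlapped. Epcam stayed at or below 0.171 CPM, and Cdh1 did not rise (1.51, 1.53 and 0.610 against 0.265, 0.870 and 0.0898 CPM). The part of these differences in the mESC and MEF results below was not tested, and in bulk RNA fewer cells of a type cannot be told apart from less RNA per cell.

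Atxn7l3, the targeted gene (chr11:102289300-102296631), was nearly absent from the Atxn7l3-/- mESCs but not from the MEFs of that label. Its level was 197 and 203 CPM in the WT mESCs and 3.34, 1.61 and 0.833 CPM in the Atxn7l3-/- mESCs, from 130, 75 and 37 counts. Each Atxn7l3-/- mESC library held 1.67%, 0.804% and 0.417% of the WT mean, in the order of their replicate numbers, and all counts were above the floor. This was a log2 fold change of -6.65 (SE 0.53, edgeR's quasi-likelihood test, adjusted p = 0.0211). With 2 WT libraries the call rested on both: without WT replicate 1 the log2 fold change was -6.66 with an adjusted p of 0.138, and without WT replicate 2 it was -6.65 with an adjusted p of 0.0659.

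In MEFs the level of Atxn7l3 was 86.6, 117 and 104 CPM in the WT libraries and 56.5, 55.5 and 73.3 CPM in the libraries labelled Atxn7l3-/-. The groups did not overlap, and the labelled libraries kept 55.2%, 54.1% and 71.5% of the mean WT level. Its log2 fold change was -0.74 (95% interval -1.25 to -0.23; quasi-likelihood test of edgeR, adjusted p = 0.0715) and was not called. It was -0.15 (adjusted p = 0.611) after a correction for the GC content of transcripts, an alternative chosen after seeing the data. The difference between the cell types was itself called: the log2 fold change was higher by 5.97 in MEFs than in mESCs (interval 4.68 to 7.26, adjusted p = 0.000664 for the interaction). The counts are sums over the gene and do not show which exons the reads came from, so MEF libraries are named here by their label. RNA counts give no level of the protein, and the genotype given by the label was not tested here. Per the study's methods the mESCs were genotyped, as were the embryos that gave the MEFs, through their yolk sacs.

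**Figure D1:**
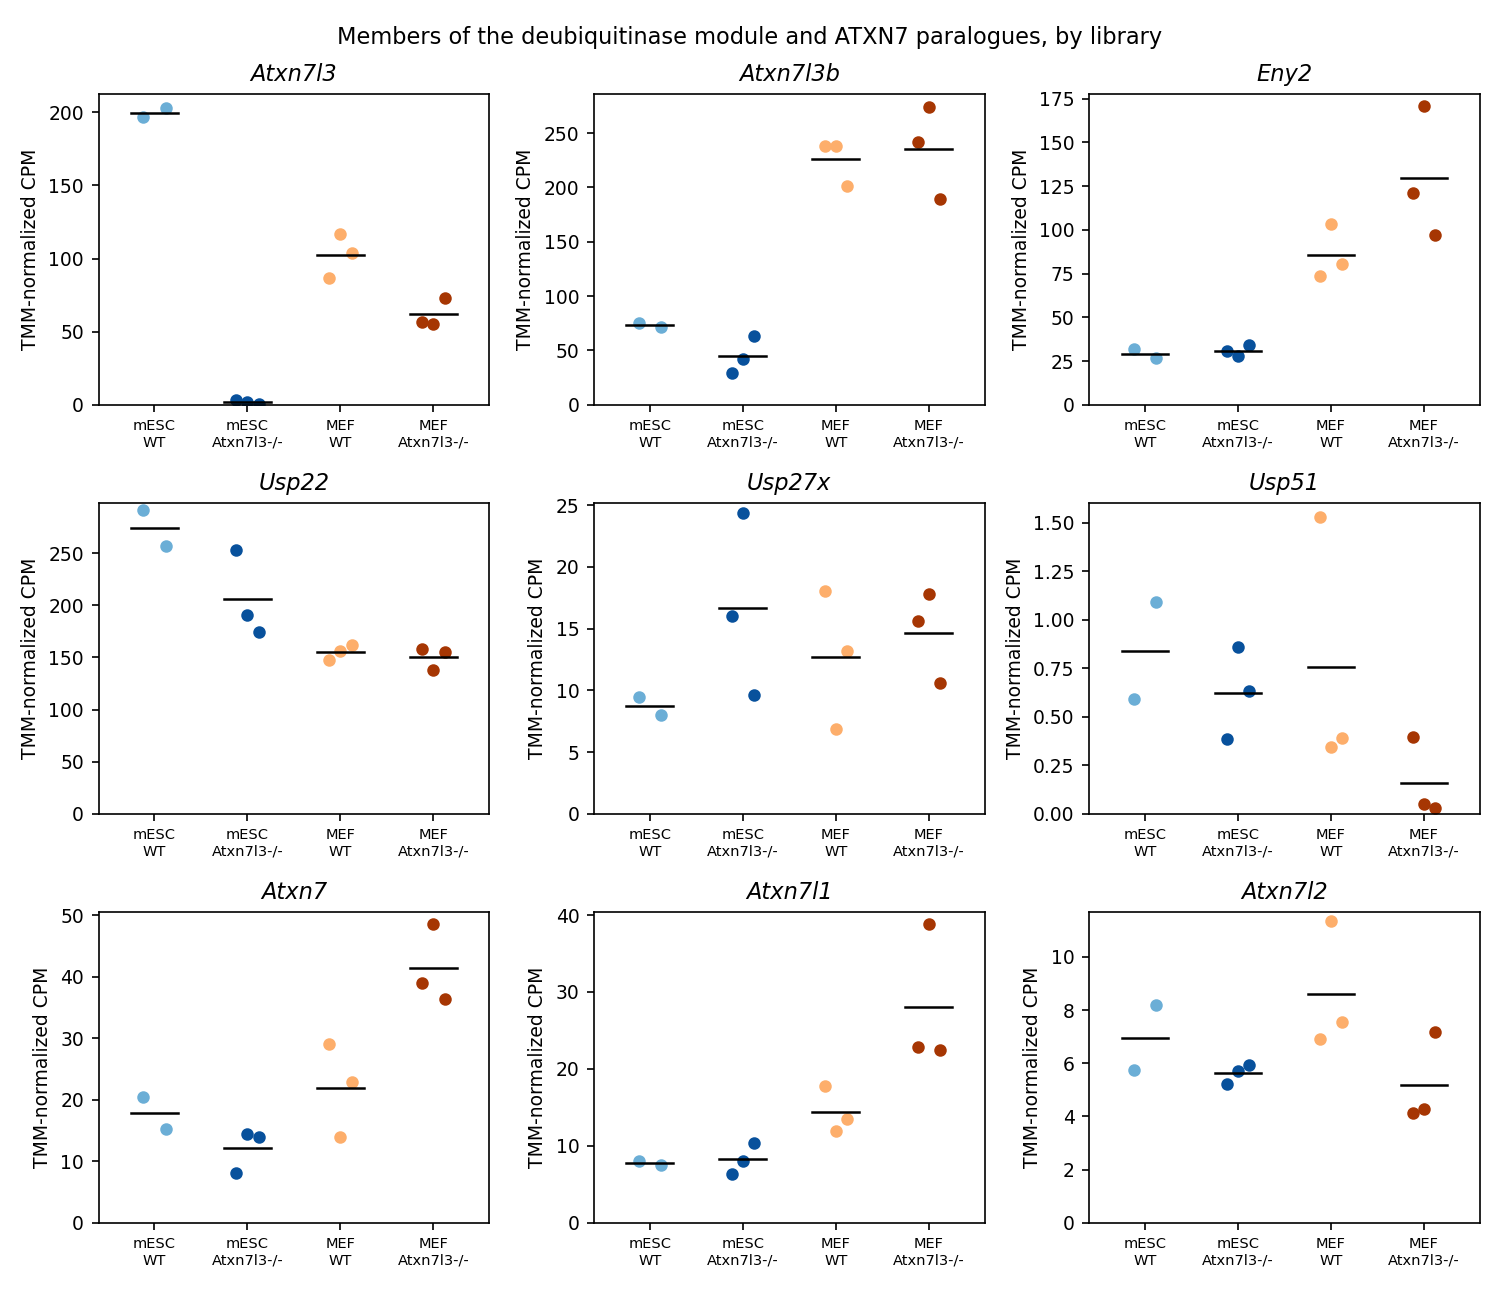
Level of each of the 9 members in every library, in CPM normalized by TMM (each vertical axis starts at 0 and has its own range). Points are libraries and horizontal lines are group means of 2 or 3 libraries. Atxn7l3 fell from 197 and 203 CPM to at most 3.34 CPM in Atxn7l3-/- mESCs, whereas the MEF libraries labelled Atxn7l3-/- lay between 55.5 and 73.3 CPM.

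The promoter window of Atxn7l3, the 250 bases before the RefSeq start (chr11:102296630-102296879, minus strand, GRCm38.p6), is shown for the targeted gene. Capitals mark CG dinucleotides. The window had 46 of them and 81.2% G and C, and 0.323% of the 32851 promoter windows in the same table held as many CG. These values describe the window only, and a link to the levels was not tested.
Atxn7l3 promoter: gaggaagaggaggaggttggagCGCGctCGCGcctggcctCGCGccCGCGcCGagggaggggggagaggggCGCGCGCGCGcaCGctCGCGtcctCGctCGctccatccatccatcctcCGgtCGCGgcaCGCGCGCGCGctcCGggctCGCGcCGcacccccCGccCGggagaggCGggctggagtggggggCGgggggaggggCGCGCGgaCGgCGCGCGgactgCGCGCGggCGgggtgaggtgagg

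Atxn7l3b (chr10:112925430-112929001) encodes the short paralogue, which is described as binding ENY2 without joining SAGA. It was lower in all 3 Atxn7l3-/- mESC libraries, at 29.4, 42.6 and 62.9 CPM, than in the WT mESCs, at 75.4 and 71.9 CPM. The groups did not overlap, but the log2 fold change of -0.66 (interval -1.38 to 0.06) was not called (edgeR's quasi-likelihood test, adjusted p = 0.196). Without Atxn7l3-/- replicate 3, the library nearest to WT, it was -0.9998 and was called (adjusted p = 0.0464). In MEFs the level was 238, 238 and 202 CPM in WT and 242, 274 and 190 CPM in the libraries labelled Atxn7l3-/-. These groups overlapped, with a log2 fold change of 0.04 (interval -0.46 to 0.54, adjusted p = 0.907). The genotype effect did not differ between the cell types beyond its error (0.77, interval -0.08 to 1.63, adjusted p = 0.202 for the interaction).

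Eny2 (chr15:44428111-44437685) encodes the smallest adaptor, which is also a subunit of the TREX-2 complex in mRNA export. The mESC libraries were close together, at 31.6 and 26.9 CPM in WT and 30.5, 28.0 and 34.0 CPM in Atxn7l3-/-, and the log2 fold change was 0.13 (interval -0.40 to 0.65, adjusted p = 0.741). MEFs held more, at 73.5, 103 and 80.5 CPM in WT and 121, 171 and 96.8 CPM in the libraries labelled Atxn7l3-/-. Only replicate 3 of the labelled libraries fell within the WT range, and the log2 fold change of 0.58 (interval -0.04 to 1.199) was not called (adjusted p = 0.172). It was 0.10 after the GC correction, Eny2 having the lowest transcript GC content of the members (39.4%, against 48.1% to 58.1% for the others).

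Usp22 (chr11:61151785-61175055) encodes the SAGA protease. In WT mESCs it stood at 291 and 257 CPM and in Atxn7l3-/- mESCs at 253, 191 and 175 CPM. All 3 Atxn7l3-/- libraries were below both WT libraries, replicate 1 only slightly. The log2 fold change of -0.36 (interval -0.88 to 0.16) was not called (edgeR's quasi-likelihood test, adjusted p = 0.312). In MEFs it was the most even member: 148, 156 and 162 CPM in WT and 158, 138 and 155 CPM in the libraries labelled Atxn7l3-/-, with a log2 fold change of -0.06 (interval -0.46 to 0.34, adjusted p = 0.824). After the GC correction that value was 0.33 (adjusted p = 0.228).

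Usp27x (chrX:7371276-7375830) encodes a protease that works with the same adaptors. It was at 9.43 and 7.97 CPM in WT mESCs and at 16.0, 24.3 and 9.66 CPM in Atxn7l3-/- mESCs. All 3 Atxn7l3-/- libraries were above WT, replicate 3 by little. On the log2 scale the difference was 0.98 (interval 0.03 to 1.92), but it was not called (edgeR's quasi-likelihood test, adjusted p = 0.157), and it was 0.64 without Atxn7l3-/- replicate 2. In MEFs the level was 18.0, 6.88 and 13.2 CPM in WT and 15.6, 17.8 and 10.6 CPM in the libraries labelled Atxn7l3-/-. The groups overlapped (log2 fold change 0.18, interval -0.82 to 1.18, adjusted p = 0.791), and the direction turned to -0.09 without WT replicate 2.

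Usp51 (chrX:153006469-153009416), the other X-linked protease gene, was close to the limit of detection. It had 31 and 53 counts in WT mESCs and 15, 40 and 28 counts in Atxn7l3-/- mESCs, or 0.592 and 1.09 against 0.386, 0.857 and 0.631 CPM. These overlapped, and the log2 fold change was -0.38 (interval -1.67 to 0.92, adjusted p = 0.683). In MEFs it had 75, 11 and 16 counts in WT and 15, 2 and 1 counts in the libraries labelled Atxn7l3-/-. WT replicate 1 was far above all other MEF libraries, labelled replicate 1 (0.398 CPM) was above the remaining WT libraries (0.344 and 0.390 CPM), and labelled replicates 2 and 3 were below the floor of 3 counts. The log2 fold change of -2.27 (interval -4.78 to 0.25) was not called (edgeR's quasi-likelihood test, adjusted p = 0.186). With the replicate number as a block it was -2.54 and was called (adjusted p = 0.0469), but not with the block and the GC correction together (adjusted p = 0.0512). Without WT replicate 1 it was -1.19, and without labelled replicate 1 it was -4.11.

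The levels of sex-linked genes differed between libraries of 1 group and are given beside these X-linked members. Xist, the RNA that silences an X chromosome in female cells, was at 49.9 and 45.9 CPM in Atxn7l3-/- mESC replicates 1 and 2, which had the highest Usp27x of the mESC libraries, and at 9.73, 23.0 and 2.39 CPM in the 2 WT libraries and replicate 3. The Y-linked Ddx3y showed the reverse, with 2.96 and 0.793 CPM in replicates 1 and 2 against 80.5, 175 and 192 CPM. Eif2s3y and Uty, also Y-linked, had the same order, but Kdm5d did not: it was at 0.745, 0.0214 and 0.586 CPM in the 3 Atxn7l3-/- libraries against 5.92 and 22.8 CPM in WT. In MEFs WT replicate 3 alone had high Xist (336 CPM, against at most 0.743 CPM elsewhere) and little Ddx3y (0.244 CPM, against 66.4 to 270 CPM), and its Usp27x of 13.2 CPM lay between those of the other WT libraries. The part of the sex-linked difference in the Usp27x and Usp51 values was not tested.

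**Figure D2:**
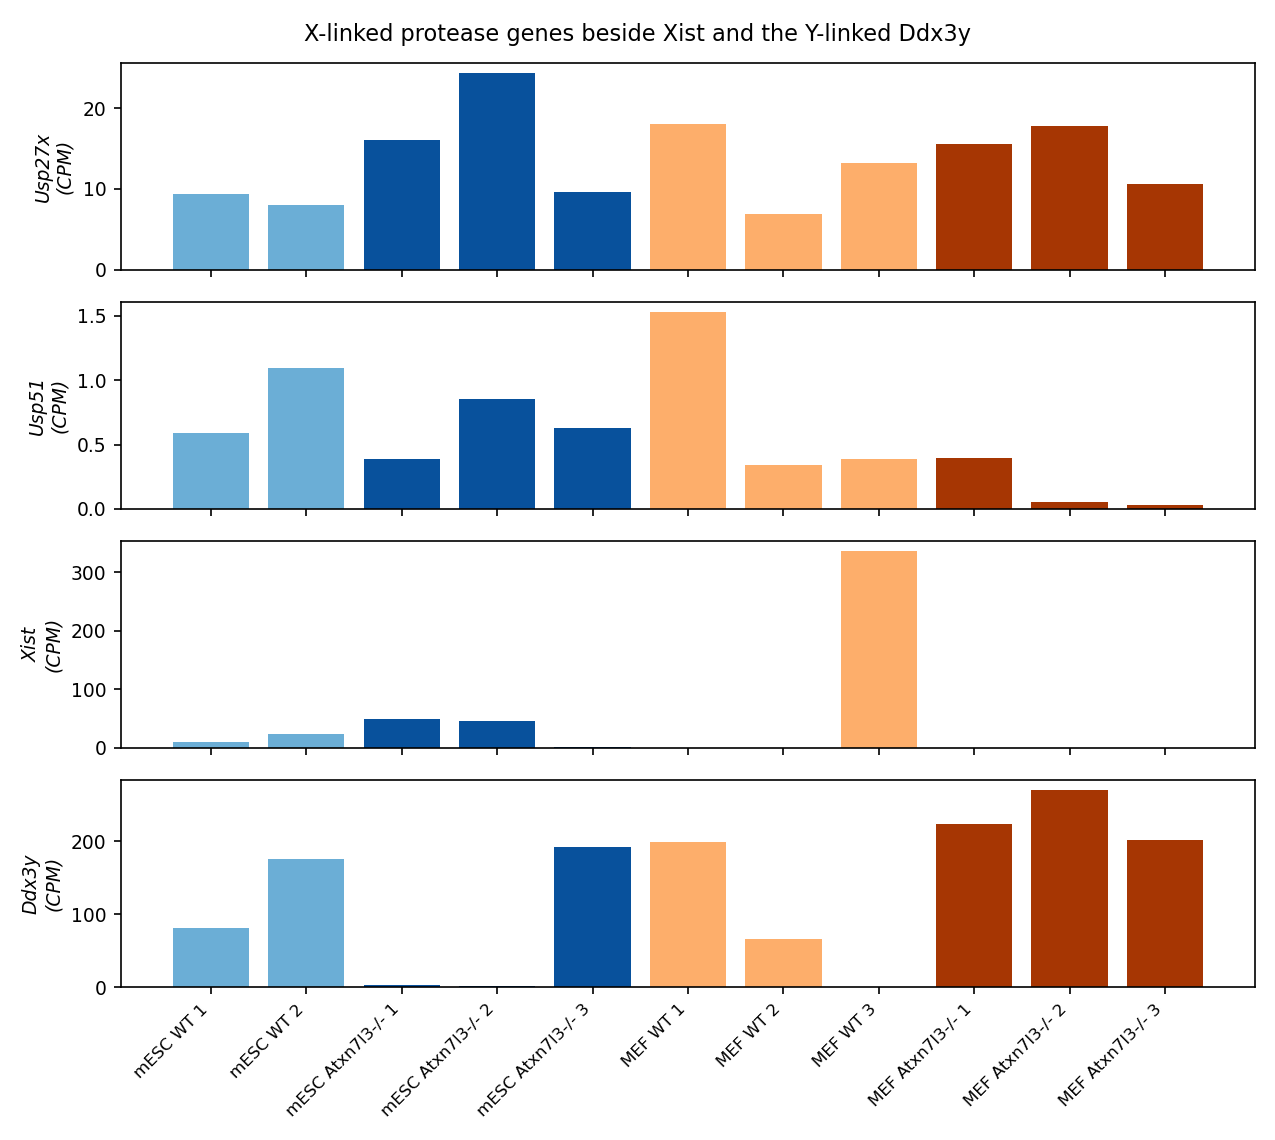
CPM of the X-linked Usp27x and Usp51, of Xist and of the Y-linked Ddx3y in each of the 11 libraries, 1 bar per library and 1 axis per gene. The Atxn7l3-/- mESC replicates 1 and 2, with 16.0 and 24.3 CPM of Usp27x, also had 49.9 and 45.9 CPM of Xist and at most 2.96 CPM of Ddx3y.

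Promoter windows of the same length are shown for both X-linked genes, because these paralogues share an adaptor and differ in level. That of Usp27x (chrX:7375831-7376080, minus strand, GRCm38.p6) had 24 CG dinucleotides, in capitals, and 72.4% G and C, and 11.98% of all windows held as many CG. That of Usp51 (chrX:153006219-153006468, plus strand) had 5 and 52.8% G and C, and 55.6% of windows held as many, the median window having 6. These counts describe the windows only.
Usp27x promoter: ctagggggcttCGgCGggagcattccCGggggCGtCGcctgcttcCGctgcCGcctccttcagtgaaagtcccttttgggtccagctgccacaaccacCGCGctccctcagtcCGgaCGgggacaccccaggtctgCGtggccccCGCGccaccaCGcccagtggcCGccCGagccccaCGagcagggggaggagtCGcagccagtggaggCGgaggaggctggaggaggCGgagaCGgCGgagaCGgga
Usp51 promoter: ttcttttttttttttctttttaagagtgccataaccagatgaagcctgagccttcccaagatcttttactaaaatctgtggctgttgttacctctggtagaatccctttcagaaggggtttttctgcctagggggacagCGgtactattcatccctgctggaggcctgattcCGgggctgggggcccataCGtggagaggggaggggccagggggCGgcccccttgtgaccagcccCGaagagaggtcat

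Atxn7 (chr14:13961440-14107302) encodes the subunit that anchors the module in SAGA, and an expanded glutamine tract in it causes a spinocerebellar ataxia. Its values went in opposite directions in the cell types. In mESCs it was 20.4 and 15.2 CPM in WT and 8.05, 14.5 and 13.9 CPM in Atxn7l3-/-, a log2 fold change of -0.51 (interval -1.30 to 0.28, adjusted p = 0.349 by edgeR's quasi-likelihood test). In MEFs it was 29.0, 13.9 and 22.8 CPM in WT and 39.1, 48.6 and 36.4 CPM in the libraries labelled Atxn7l3-/-, a log2 fold change of 0.90 (interval 0.14 to 1.65, adjusted p = 0.110). The groups did not overlap in either cell type, and neither difference was called. The difference between the effects was 1.47 (interval 0.40 to 2.53) and missed the threshold (adjusted p = 0.0724). It passed by DESeq2 (1.44, adjusted p = 0.0327), after the GC correction (1.94, adjusted p = 0.0377) and without WT MEF replicate 1 (1.73, adjusted p = 0.0468).

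Atxn7l1 (chr12:33147693-33373185), a paralogue that can take the place of Atxn7 in the complex, was at 8.01 and 7.45 CPM in WT mESCs and at 6.37, 8.06 and 10.3 CPM in Atxn7l3-/- mESCs. The log2 fold change there was 0.14 (interval -0.67 to 0.96, adjusted p = 0.813). In MEFs it was 17.7, 11.9 and 13.5 CPM in WT and 22.9, 38.8 and 22.4 CPM in the libraries labelled Atxn7l3-/-, replicate 2 being the highest. These groups did not overlap, and the log2 fold change of 0.94 (interval 0.18 to 1.71) was not called (edgeR's quasi-likelihood test, adjusted p = 0.101).

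Atxn7l2 (chr3:108202222-108210934), the remaining paralogue, had values of the other sign in MEFs, with 6.89, 11.3 and 7.54 CPM in WT and 4.11, 4.27 and 7.19 CPM in the libraries labelled Atxn7l3-/-. Labelled replicate 3 lay within the WT range and the other 2 below it. The log2 fold change of -0.73 (interval -1.70 to 0.24, adjusted p = 0.254) was 0.07 after the GC correction, Atxn7l2 having the highest transcript GC content of the members (58.1%). In mESCs it was 5.74 and 8.18 CPM in WT and 5.22, 5.72 and 5.92 CPM in Atxn7l3-/-, a log2 fold change of -0.26 (interval -1.07 to 0.56, adjusted p = 0.658).

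Counted together, 1 of the 9 members was called between Atxn7l3-/- and WT mESCs, the targeted gene itself, which fell. Among all 17800 genes tested 1238 were called (6.96%), 3.08% higher and 3.88% lower. In 5 of the 9 the mESC groups did not overlap, a share to be read against 49.7% of all genes tested. The members were judged on CPM normalized over all 11 libraries and all genes on CPM normalized within the cell type. These shares therefore compare only roughly, and Usp22 was separated only by 253 against 257 CPM. Without either WT mESC library edgeR called 0 members and 0 genes, with 2932 and 2994 genes at an unadjusted p under 0.05, and without Atxn7l3-/- replicate 1 it called 3 genes. In MEFs edgeR called 0 members, as did DESeq2, while Atxn7l3, Atxn7 and Atxn7l1 (3 members) had an unadjusted p under 0.05. Over all genes 5166 of the 15958 tested in MEFs were under 0.05 unadjusted as well. Of 15958 genes tested there 9.41% were called, 5.01% higher and 4.39% lower, and the GC correction moved the higher share of the called genes from 53.3% to 64.5%, whereas it was 44.9% with upper-quartile normalization, 42.4% in 1 fit of all 11 libraries, 40.7% by DESeq2 and 39.3% with the replicate block. The MEF groups did not overlap for the same 3 members, against 39.8% of all genes, with the same difference of normalization. The interaction was called for 1 member, Atxn7l3, and for 11.4% of 19326 genes, 6.14% with a higher and 5.27% with a lower log2 fold change in MEFs. The GC correction moved the higher share of the interaction calls from 53.8% to 67.6%. The median log2 fold change over the members was -0.36 in mESCs and 0.04 in MEFs, against 0.04 and -0.06 over all genes tested.

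**Figure D3:**
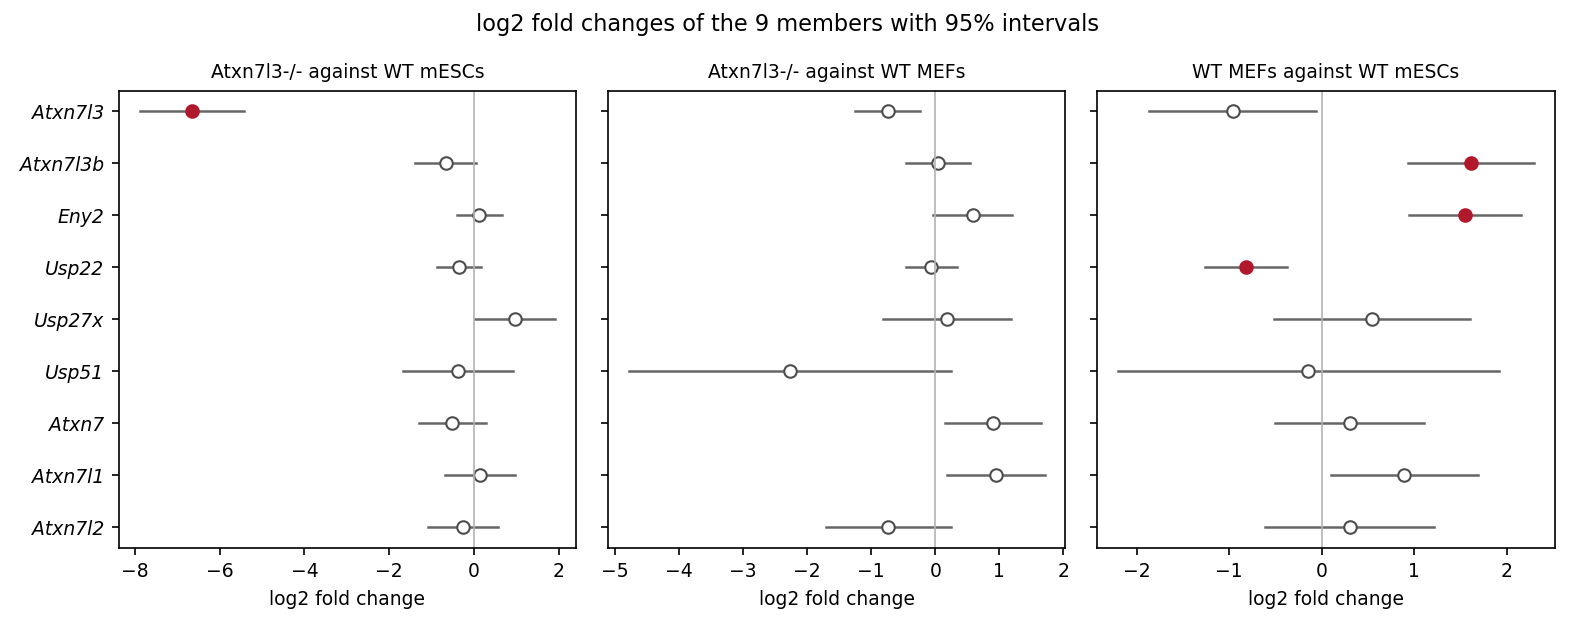
log2 fold changes of the 9 members in 3 comparisons, each panel with its own horizontal axis. Points are estimates, lines are 95% intervals and filled points passed an adjusted p of 0.05. In the genotype comparisons the only filled point is Atxn7l3 in mESCs (-6.65), and between WT cell types Atxn7l3b, Eny2 and Usp22 are filled.

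Between WT cells, 3 of the 9 members were called, in the joint fit of all libraries. Atxn7l3b was 3.06 times as high in WT MEFs as in WT mESCs (mean 226 ± 20.97 CPM, SD, n = 3, against 73.7 ± 2.49 CPM, n = 2; log2 fold change 1.62, SE 0.31, edgeR's adjusted p = 0.00148). Eny2 was 2.93 times as high (85.7 ± 15.5 against 29.3 ± 3.31 CPM; log2 fold change 1.55, SE 0.27, adjusted p = 0.000975). Usp22 was lower, at 56.7% of the mESC mean (155 ± 6.99 against 274 ± 24.1 CPM; log2 fold change -0.82, SE 0.20, adjusted p = 0.00618), and its call was lost without WT mESC replicate 1 (-0.72, adjusted p = 0.0562). Atxn7l3 was at 51.3% of the mESC mean, with groups that did not overlap, and missed the threshold (-0.96, interval -1.86 to -0.06, adjusted p = 0.0664). It was called with upper-quartile normalization (-1.08, adjusted p = 0.0441), and at -0.97 without Atxn7l3-/- mESC replicate 1 (adjusted p = 0.0151) or replicate 3 (adjusted p = 0.0187), which enter this fit through the shared spread. Atxn7l1 missed the threshold as well (0.90, interval 0.10 to 1.69, adjusted p = 0.0551). It was called by DESeq2 (0.89, adjusted p = 0.0267), without WT MEF replicate 2 (1.02, adjusted p = 0.0458) and without replicate 2 of the MEFs labelled Atxn7l3-/- (0.90, adjusted p = 0.0438). Usp27x (0.55, interval -0.51 to 1.61), Usp51 (-0.14, interval -2.20 to 1.91), Atxn7 (0.30, interval -0.50 to 1.11) and Atxn7l2 (0.30, interval -0.61 to 1.21) had intervals that included 0. Of the 19326 genes tested 53.9% were called between the WT cell types, 26.8% higher and 27.1% lower in MEFs, and 72.4% did not overlap, so 3 of 9 called and 5 of 9 not overlapping are not above the background.

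Levels of different members can be compared only per length, here as the deposited values, which are normalized reads over the authors' median transcript length in kb. In WT mESCs Usp22 was highest at 13113 ± 1343 (SD, n = 2), followed by Atxn7l3 at 2395 ± 15.6, Atxn7l3b at 1557 ± 75.3, Atxn7 at 973 ± 214 and Eny2 at 513 ± 65.5 normalized reads per kb. Atxn7l1 (155 ± 10.2) and Atxn7l2 (127 ± 29.7) followed and overlapped, and below them came Usp27x (86.6 ± 11.5) and Usp51 (16.2 ± 6.58). In WT MEFs the order was Usp22 (6595 ± 269, n = 3), Atxn7l3b (4235 ± 396), then Eny2 (1331 ± 231), Atxn7l3 (1089 ± 154) and Atxn7 (1064 ± 376), of which each neighbour in the order overlapped the next. Atxn7l1 (256 ± 55.6) stood apart, Atxn7l2 (140 ± 38.0) and Usp27x (112 ± 50.2) overlapped, and Usp51 was lowest (13.0 ± 11.6). In both Atxn7l3-/- groups Usp22 was again highest and Usp51 lowest, and in Atxn7l3-/- mESCs Atxn7l3 (23.2 ± 15.4) overlapped Usp51 (12.1 ± 4.41).

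The order of levels rests on the length used. The median transcript length of Usp22 is 889 bases and that of Atxn7 779 bases, while their longest coding transcripts have 4434 and 6853 bases. Per kb of the longest coding transcript, Usp22 was 2629 ± 269 in WT mESCs, next to Atxn7l3 at 2289 ± 14.9, and Atxn7 was 111 ± 24.3, overlapping Atxn7l2 at 97.1 ± 22.6. In WT MEFs Atxn7l3b was then the highest member (2389 ± 223), above Usp22 (1322 ± 54.0), which overlapped Eny2 (1077 ± 187). Usp51 was lowest with either length in all 4 groups.

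**Figure D4:**
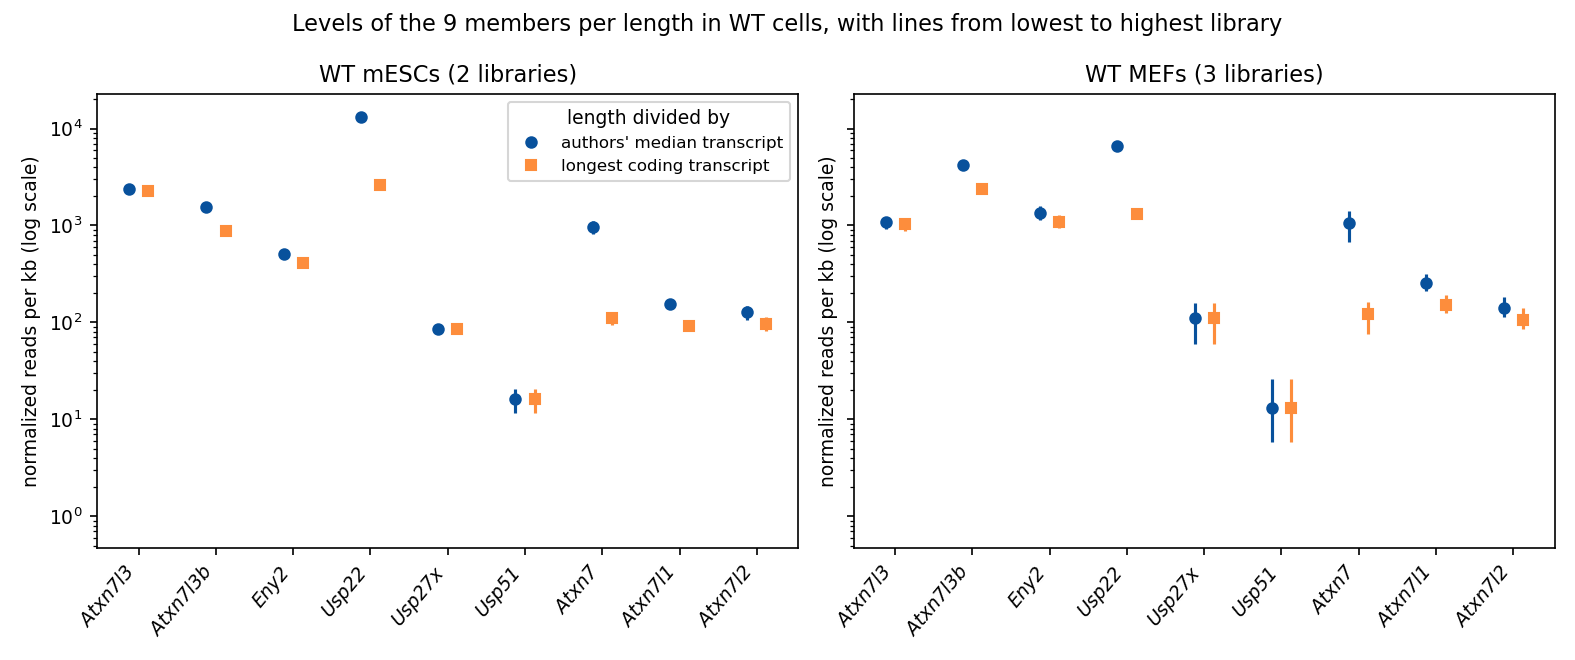
Mean level per length of each member in WT mESCs (left) and WT MEFs (right) on a logarithmic axis of normalized reads per kb. Circles divide by the authors' median transcript length and squares by the longest coding transcript, with lines from the lowest to the highest library. The length moves Usp22 from 13113 to 2629 and Atxn7 from 973 to 111 in WT mESCs, and leaves Usp51 lowest.

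With both genotypes pooled, the balance between paralogues within a library did not differ detectably between the cell types. Usp22 made up 98.6% ± 0.812 (SD, n = 5) of the summed normalized reads per kb of the 3 protease genes in mESC libraries and 98.0% ± 0.716 (n = 6) in MEF libraries, a difference of -0.568 percentage points (2-sided exact permutation test, p = 0.234, adjusted p = 0.351 over 6 shares). Usp27x held 1.27% ± 0.791 and 1.84% ± 0.649 (exact permutation p = 0.203, adjusted p = 0.351), and Usp51 0.126% ± 0.0526 and 0.118% ± 0.146 (p = 0.905, adjusted p = 0.905, same test). By the longest coding transcript Usp22 still took 93.5% ± 3.53 and 91.0% ± 3.08. Among the ATXN7 paralogues Atxn7 held 73.2% ± 5.33 in mESC and 74.6% ± 5.96 in MEF libraries, Atxn7l1 15.8% ± 3.47 and 18.4% ± 2.19, and Atxn7l2 11.1% ± 2.75 and 6.98% ± 5.50. None of these differed in the exact permutation test (adjusted p = 0.805, 0.351 and 0.351). The WT libraries alone were too few for this test to reach 0.05. In them Usp22 held 99.2% and 99.2% in mESCs against 97.1% to 99.0% in MEFs, and Usp27x 0.640% and 0.669% against 0.907% to 2.46%. Atxn7l1 held 11.7% and 13.3% against 16.4% to 19.8%, and the WT shares of Usp51, Atxn7 and Atxn7l2 overlapped. By genotype the mean share of Atxn7l2 was 10.45% in WT and 11.5% in Atxn7l3-/- mESCs, and 10.6% in WT MEFs against 3.39% in those labelled Atxn7l3-/-, a difference that was not tested. With the longest coding transcript as length Atxn7 fell to 32.3% and 35.1%, so which paralogue has most transcripts depends on the length.

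The genes around the module were counted as whole lists. Of 18 SAGA subunits outside the deubiquitinase module, 1 was called lower and 0 higher in Atxn7l3-/- mESCs, where 6.96% of all genes were called and 3.88% were called lower. This was Sf3b3, a splicing factor subunit that SAGA shares (516 ± 12.8 CPM in WT, n = 2, against 214 ± 26.3 CPM, n = 3; log2 fold change -1.22, SE 0.18, edgeR's adjusted p = 0.0221). In MEFs, where 9.41% of all genes were called, 0 of the 18 were called by edgeR, with 4 at an unadjusted p under 0.05. Over all genes 5166 of 15958 in MEFs and 5309 of 17800 in mESCs were under 0.05 unadjusted, the background for such counts here. The median log2 fold change over the 18 was -0.21 in mESCs and -0.04 in MEFs, against 0.04 and -0.06 over all genes. None of 5 TREX-2 genes and none of 5 H2B ubiquitin ligase genes was called in either genotype comparison (0 of 5 each, with 2 and 3 at an unadjusted p under 0.05 in mESCs and 1 and 2 in MEFs), the TREX-2 median being 0.15 in mESCs and -0.04 in MEFs and the ligase median -0.24 and 0.20. Of 6 genes for other proteases described to act on ubiquitylated H2B, 0 were called in mESCs (2 at an unadjusted p under 0.05), and in MEFs 1 of the 5 tested was called higher, Usp46 (56.9 ± 15.1 CPM in WT against 153 ± 32.5 CPM in the libraries labelled Atxn7l3-/-; log2 fold change 1.41, SE 0.28, adjusted p = 0.0325).

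**Figure D5:**
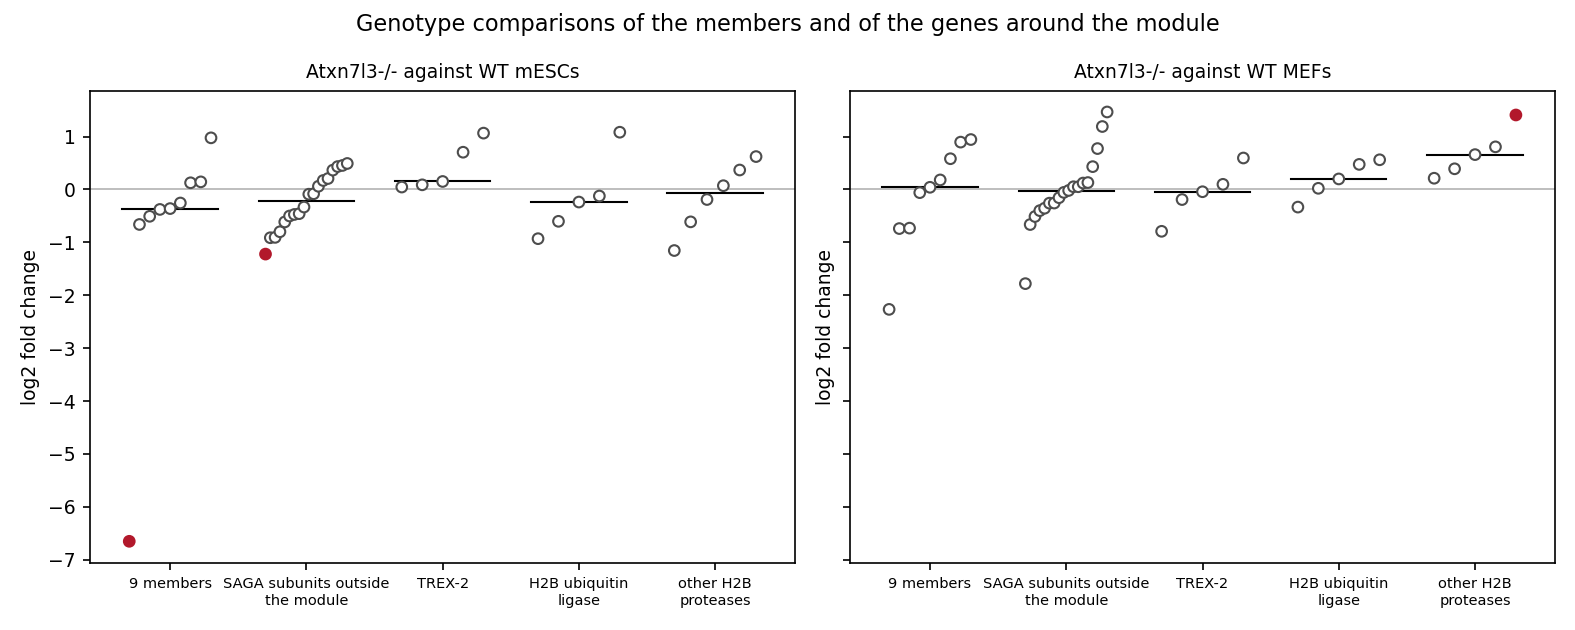
log2 fold changes of Atxn7l3-/- against WT for the 9 members and for 4 lists of related genes, in mESCs (left) and MEFs (right), drawn in ascending order within each list. Black lines are medians and filled points passed an adjusted p of 0.05. Apart from Atxn7l3 in mESCs (-6.65), the filled points are Sf3b3 in mESCs (-1.22) and Usp46 in MEFs (1.41).

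The genotype effect differed between the cell types for 2 of the 18 SAGA genes (Sf3b3, 1.72, and Kat2b, a SAGA acetyltransferase, 1.87, on the log2 scale), for 0 of 5 TREX-2 genes, for 1 of 5 ligase genes (Wac, a cofactor of RNF20/RNF40, 1.47) and for 2 of 6 other proteases (Usp12 and Usp46 with 1.87 and 1.66), against 11.4% of all genes. Usp44 of the last list was also called by the fit, in the other direction (-4.19). Its mean level in MEFs labelled Atxn7l3-/- (0.0454 CPM, SD 0.0547) was below the detection floor, though single libraries need not be, and it is not counted. The share of all genes was taken without such an exclusion, and by that rule 3 of the 6 other proteases were called. Between WT cells 8 of the 18 SAGA genes were called lower and 1 higher in MEFs, against 53.9% of all genes called. The acetyltransferase genes Kat2a (-1.69, SE 0.25) and Kat2b (-1.63, SE 0.33) were the lowest, and the structural subunit gene Tada1 was the one that was higher (1.13, SE 0.37). Of the 5 TREX-2 genes 2 were higher (Sem1, 1.24, and Cetn3, 1.17) and 2 lower (Mcm3ap, its scaffold, -2.14, and Pcid2, -0.81), so that Eny2 was higher in MEFs while the scaffold of TREX-2 was lower. Rnf40 was lower (-0.76) and Ube2b, a conjugating enzyme for H2B, was higher (0.83), and 3 of the 6 other proteases were lower (Usp44 with -4.06, Usp7 with -2.18 and Usp46 with -0.88).

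The genes whose log2 CPM (prior count 2) followed a member most closely over the 11 libraries were found among 19325 others, and the 11 libraries share their cell type and genotype groups. For Atxn7l3 these were Flicr, Pspc1 and Gm15879 (Pearson's r 0.96, 0.95 and 0.95). Only Pspc1, a paraspeckle protein gene, was well measured, with 75.5 CPM in WT and 14.0 CPM in Atxn7l3-/- mESCs and 46.6 and 40.3 CPM in MEFs. For Usp22 they were Havcr1, Elf5 and Fbxo39 (0.98, 0.98 and 0.97), each at most 1.37 CPM in any group mean. Usp27x was most like Magt1, Zfyve9 and Vnn1 (0.92, 0.91 and 0.88) of which Magt1 was at 109 CPM in WT and 223 CPM in Atxn7l3-/- mESCs. For Usp51 they were 5930412G12Rik, Nlrc4 and Fzd10 (0.97, 0.95 and 0.94).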

How the data were processed

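Poly(A) RNA from 11 libraries was sequenced with a stranded kit. The authors' processing notes name cutadapt 1.10, STAR 2.5.3a, HTSeq 0.6.1p1, DESeq2 1.16.1 and the build mm10. The deposited counts are raw reads per gene, in 1 table per cell type. The deposited signal values are counts that the authors normalized for library size and scaled per kb of each gene's median transcript. The tables also hold the authors' fold changes and p-values, which were not used. Per the study's methods a further WT mESC data set was left out by the authors.

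Counts were tested with edgeR 4.0.16 (filterByExpr, TMM, quasi-likelihood F test) within each cell type, and over all 11 libraries for the 26398 genes listed in both tables (WT cell types, interaction). Called means a Benjamini-Hochberg adjusted p of at most 0.05 over all genes tested. Shares were compared by exact permutation tests. Named genes were the members, called genes of 4 related lists, and the 3 genes most like Atxn7l3, Usp22, Usp27x and Usp51. The members and lists were chosen with earlier results of these data known. Each fit was tested on simulated data first. Alternatives were other normalizations and filters, DESeq2 1.42.0, a replicate block, each library left out and, added after seeing the data, a GC correction, other lengths and genes listed in either table.

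Cell lines came from separate embryos per the study's methods. In MEFs same-numbered WT and labelled libraries deviated together over 15958 genes (correlations 0.473, 0.161 and 0.240), a hint from the data and not from the labels. The results come from fits without the block, and the blocked value is given where it changed a call. Sequences come from GENCODE M21 transcripts and RefSeq promoter windows (GRCm38.p6, none found for Usp22 and Eny2). Some coding stretches are not reported here.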

Additional observations from a re-analysis of the deposited data

Results flagged for a closer look

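Among 12 groups of shares examined for a library standing apart, 2 had one. The rule is set to flag about 1 in 20 groups by chance if values are independent and of 1 kind. These groups pool both genotypes, and the shares of paralogues add up to a fixed total, so that rate is no test here. The share of Usp51 among the protease genes was 0.405% in WT MEF replicate 1, above all other MEF libraries (gap over range 0.769). The share of Atxn7 among the ATXN7 paralogues was 63.0% in WT MEF replicate 2, below all other MEF libraries (gap over range 0.724). The effect of genotype on Atxn7l3 differed between the cell types, its log2 fold change being 5.97 higher in MEFs (edgeR's interaction test, adjusted p = 0.000664).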

How the results depend on the processing

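Of the 36 log2 fold changes of members, 25 kept their direction in every alternative run. The cause of the changes below was not tested. In mESCs the genes called were 2995 with no filter, 3390 by DESeq2, 446 in 1 fit of all 11 libraries and 0 to 2242 with a library left out. The members called there were 2 (Atxn7l3 and Atxn7l3b) with the GC correction and replicate block and 0 to 2 with a library left out, and Atxn7l3 was -7.31 to -6.30, uncalled without WT replicate 1 (-6.66) or 2 (-6.65). In MEFs 846 genes were called at 10 counts or more in every library, 3913 by DESeq2, 3569 in 1 fit of all 11 libraries and 197 to 2038 with a library left out. Between WT cells 6455 genes were called at 10 counts or more, and 6518 to 10541 with a library left out. Interaction calls were 4188 by DESeq2, 1316 with the GC correction and replicate block and 253 to 3140 with a library left out. The members called for it were 2 (Atxn7 and Atxn7l3) by DESeq2 and with the GC correction, and 1 to 2 with a library left out.

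With the replicate block 1435 genes were called in mESCs, where same numbers did not deviate together (correlations 0.00777 and -0.172), 2232 in MEFs, 9845 between WT cells and 1489 for the interaction. The block made 1 member called in MEFs, Usp51, and changed no other member's call. It turned Atxn7l1 in mESCs to -0.072, and to -0.13 with the GC correction. In MEFs Atxn7l3b turned to -0.072 with upper-quartile normalization and to -0.024 at 10 counts or more. The GC correction turned Usp22 in MEFs to 0.33 (0.33 with the block), Atxn7l2 in MEFs to 0.074 (0.078), and the interactions of Eny2 to -0.22 (-0.22) and of Atxn7l2 to 0.53 (0.52). It moved the median log2 fold change of all genes in MEFs from -0.06 to 0.12, and upper-quartile normalization moved it to -0.17.

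Leaving out a library turned the direction of these uncalled values, given as ranges. In mESCs Eny2 was -0.00082 to 0.25, Usp51 -0.75 to 0.11, Atxn7l1 -0.066 to 0.30 and Atxn7l2 -0.48 to 0.00062. In MEFs Atxn7l3b was -0.073 to 0.19, Usp22 -0.078 to 0.010 and Usp27x -0.093 to 0.54. Between WT cells Usp51 was -1.18 to 0.36. The difference in share between the cell types was -0.0654 to 0.0141 percentage points for Usp51 and -0.274 to 3.79 for Atxn7. At 10 counts or more Usp51 had no value in MEFs or over all libraries. With 2 WT mESC libraries, and 1 to 75 counts of Usp51 in MEFs, the precision of those values is limited.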
